A study of Mus musculus with 52 samples.

Results

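PPARA binding in mouse brown adipose tissue (BAT) at room temperature (RT) was set against binding after 4 h of cold. Members were chosen by sample title: 2 PPARA peak lists from RT and 3 from cold, 5 of the 52 samples of the series and 5 of its 35 samples with a peak list. All 5 libraries were chromatin immunoprecipitations (ChIP-seq) from BAT of mice with the genotype HA-PPARA KI, read here as a knock-in of tagged PPARA, and all used the antibody labelled Cell Signaling tech 3724. Tissue was fixed with 2 mM DSG for 25 min and then with 0.8% formaldehyde for 12 min. No strain, age or sex is given in the labels used here. Each condition had 1 input library labelled for PPARA, so an effect of the input and an effect of the condition cannot be told apart. Whether the replicates came from different mice is not stated, and p-values here therefore reflect sample-to-sample spread that could be technical.

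PPARA is a nuclear receptor that senses fatty acids. It binds DNA as a pair with RXR at a direct repeat of the hexamer AGGTCA with 1 spacer base, called DR1, and it is known for switching on genes of fatty acid oxidation. PPARG, its close relative, binds the same element and maintains fat cell identity. In BAT, cold triggers noradrenergic signalling that drives lipid burning and heat production through UCP1, with the coactivator PGC1A (gene Ppargc1a) as a partner of both receptors.

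The cold lists were much shorter. The RT lists held 26388 and 23589 merged regions, and the cold lists 11107, 7370 and 7317. The groups did not overlap, and the ratio of cold to RT means was 0.344 (exact permutation test over libraries, two-sided, p = 0.1, the smallest that 2 against 3 libraries can give). Read depth is unknown from peak lists. A shorter list can follow from fewer reads, from fewer cells that bind or from less binding per cell, and these cannot be told apart here.

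To remove list length from the comparison, regions were ranked within each list by the authors' −log10 p and each list was reduced to its best 7317. The last region kept had a −log10 p of 19.9 and 18.4 at RT against 11.5, 4.78 and 4.05 in cold, and the median deposited fold enrichment of the kept regions was 12.6 and 12.5 against 9.20, 7.73 and 7.04. Regions of the cold lists were narrower even then, with a median width of 716 and 658 bp at RT and 492, 403 and 393 bp in cold (exact permutation p = 0.1). They covered 6.19 and 5.65 Mb at RT and 4.15, 3.42 and 3.32 Mb in cold. Covered lengths were therefore scaled to the mean library total before loci were compared.

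**Figure D1:**
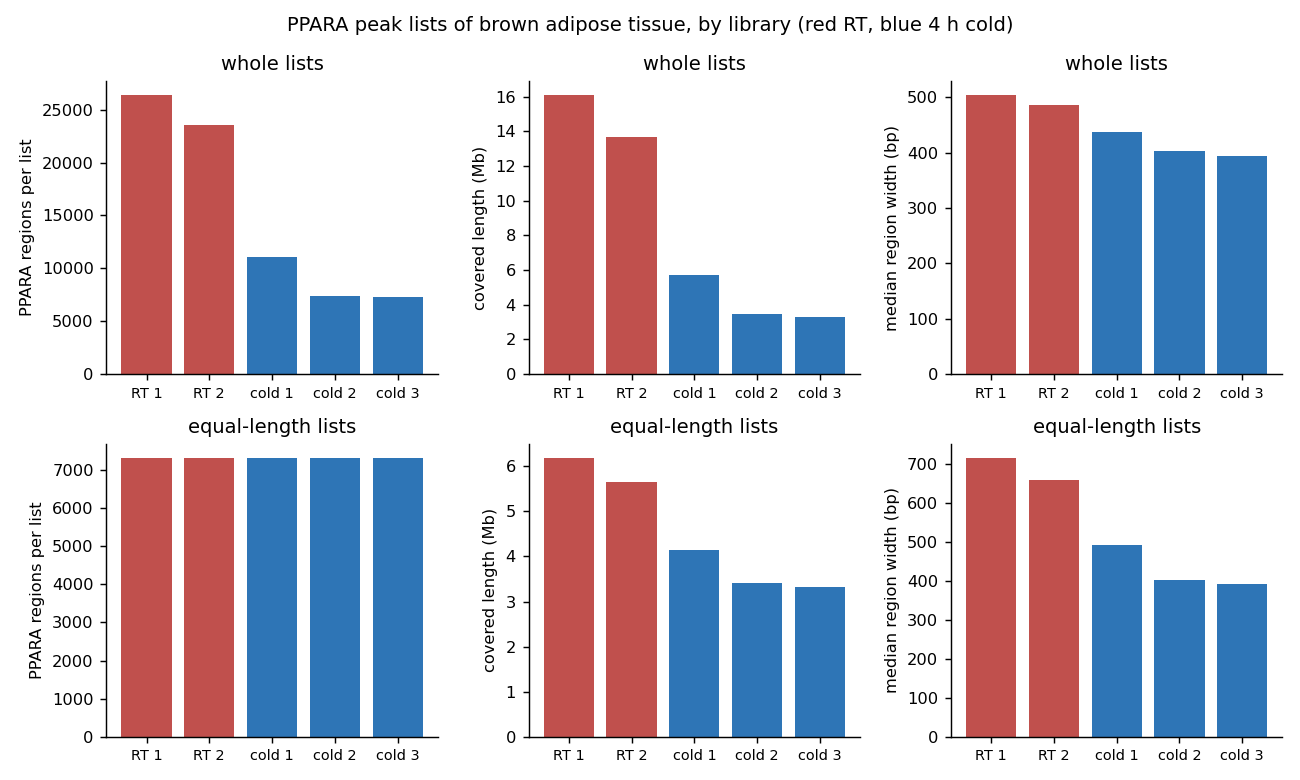
Number of merged PPARA regions, covered length in Mb and median region width in bp for each of the 5 libraries (bars, 1 per library), in whole lists (top) and in lists of equal length (bottom). With 7317 regions in every list, the cold libraries still covered less (3.32 to 4.15 Mb against 5.65 and 6.19 Mb) in narrower regions.

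Marker loci of several cell types were counted as covered where any of the 5 equal-length lists held a region. Of all 21631 loci, 6909 were covered in this sense. All 10 brown adipocyte marker loci were covered, with a summed scaled length of 18.7 to 21.02 kb at RT and 17.3 to 21.02 kb in cold. Of 14 endothelial marker loci 2 were covered (0.224 to 0.481 kb at RT, 0 to 0.85 kb in cold), with Cdh5, Kdr and Tek at 0. Of 12 macrophage and lymphocyte loci 2 were covered (0 to 0.302 kb, and 0.462 to 1.05 kb in cold), with Ptprc and Csf1r at 0. Counts and sums were 2 of 10 for fibroblasts (0.755 to 1.44 kb at RT, 0.582 to 1.31 kb in cold), 2 of 10 for skeletal muscle (1.06 to 1.82 kb, 2.31 to 3.36 kb), 4 of 8 for Schwann cells (3.45 to 4.31 kb, 4.16 to 5.24 kb) and 2 of 8 for hepatocytes (0.404 to 0.482 kb, 0 to 1.09 kb), with Pdgfrb, Ckm, Sox10 and Alb at 0. In these equal-length lists the macrophage and muscle sums were higher in every cold library than in either RT library. The lowest cold macrophage sum, 0.462 kb, equals the Cd68 value of that library, from a region outside the Cd68 gene body. In whole scaled lists the macrophage sum was 1.62 to 2.55 kb at RT and 0.855 to 1.95 kb in cold. There the muscle sum was 2.69 to 3.03 kb at RT and 4.29 to 4.98 kb in cold, and the Schwann cell sum 5.48 to 6.56 kb and 9.10 to 9.74 kb. The brown adipocyte sum was 21.4 to 24.6 kb and 32.1 to 38.9 kb. The part of other cell types in any result was not tested.

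In lists of equal length, 121 loci were higher and 258 lower in cold among 5053 tested, which is 2.39% and 5.11% (limma, Benjamini-Hochberg adjusted p under 0.05). Each locus spanned a protein-coding gene and the 10 kb flanking it at either end, and its measure was log2 of the scaled covered length plus 500 bp. The median change of all tested loci was -0.04. Only loci covered in at least 2 libraries were tested. A locus listed at 0 in all libraries of a condition thus entered the test through the other condition alone. It has no spread where it is 0, so its p-value partly follows from that selection. Among the loci named below this holds for Slc2a1, Pfkp, Ogdh, Slc39a14, Wnt5b, 4930415O20Rik, Pard3, Notch4, Spred2 and Cd68, listed at 0 at RT. The same holds for Tsc22d3, Cfd, Prtn3, Rnf144b, Lgals1, Mcam, Hexim1 and Ly6e, listed at 0 in cold. With no such filter limma called 0 loci. Without RT replicate 1 or RT replicate 2, limma called 0 loci; the lone RT library is then assumed to vary like the cold ones. In those fits 385 and 356 loci were higher and 219 and 240 lower at an unadjusted p under 0.05, and the change of Ppargc1a, for example, was 1.02 and 1.05 against 1.04 with all libraries. In whole lists, scaled in the same way, 431 loci were higher and 3183 lower among 10231 (4.21% and 31.1%), with a median change of -0.44. Both analyses called 51 loci higher (1.01% of 5053) and 140 lower (2.77%), and 1 locus (0.0198%) was called in opposite directions. In whole lists 13 higher and 2 lower were called without RT replicate 1, and 28 and 5 without RT replicate 2. Groups did not overlap at 14.1% of loci in the higher and 39.6% in the lower direction. In equal-length lists without scaling the calls were 167 higher and 701 lower, beside 121 and 258 with it.

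**Figure D2:**
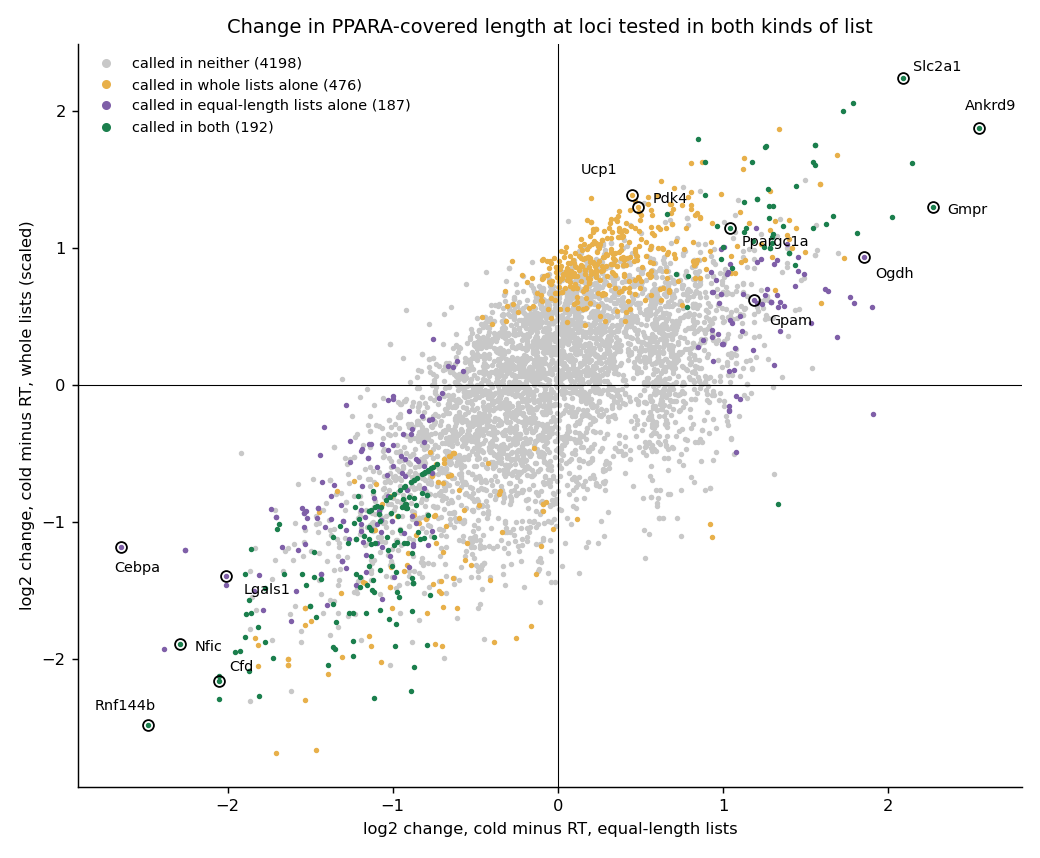
Log2 change in PPARA-covered length (cold minus RT, each point 1 locus) in equal-length lists (x axis) and in whole scaled lists (y axis), for the 5053 loci tested in both. Of these, 192 were called in both, 187 in equal-length lists alone and 476 in whole lists alone. Slc2a1, Ankrd9 and Gmpr lie at the upper right and Rnf144b, Nfic and Cfd at the lower left.

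Among PPAR receptors and coregulators, 1 of the 14 tested loci rose in equal-length lists and 2 fell, with a list median of -0.38 against -0.04 for all loci. Whole scaled lists gave 2 higher and 3 lower of 20 (median -0.23). These and all later list counts stand beside the shares of all tested loci. Those were 2.39% higher and 5.11% lower in equal-length lists, and 4.21% and 31.1% in whole scaled lists. Ppargc1a, the PGC1A gene (chromosome 5, 51454249 to 52115853, GRCm38.p6), had 3.66 and 3.74 kb at RT and 7.59, 8.79 and 8.15 kb in cold. Every cold library lay above both RT libraries, a log2 change of 1.04 ± 0.12 (SE; limma, adjusted p = 0.0438). Whole scaled lists gave 1.14 (adjusted p = 0.00913). This rise is relative to the other loci of a library, since without scaling the change was 0.39 (adjusted p = 0.131) in equal-length lists and -0.64 (adjusted p = 0.0304) in whole lists, where the median of all loci was -0.40 and -1.09.

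Ranks of single sites are positions within each whole list, and since the lists differ in length they are given as a description. In Ppargc1a, the site at a RefSeq start of the gene, chr5:51567707-51568178, was held by all 3 cold lists, at ranks 4012, 6157 and 3864, and by neither RT list at any rank. The strongest site, chr5:52060959-52063120, lay inside the gene body and kept a like rank in all libraries: 76 and 85 at RT, and 92, 106 and 104 in cold. Another, chr5:51591278-51592521, ranked 861 and 385 at RT and 335, 211 and 132 in cold, where no cold rank overlapped the RT ranks. A further 3 sites of the gene, in both RT lists and no cold list, had RT ranks of 12319 to 19252, beyond the length of every cold list.

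Esrrg, an orphan receptor of oxidative tissues, had 5.67 and 6.08 kb at RT and 3.80, 3.79 and 3.71 kb in cold (log2 change -0.58 ± 0.11; limma, adjusted p = 0.0488), but 0.10 in whole lists (adjusted p = 0.551). Its start site ranked 46 and 54 at RT and only 1940, 2072 and 2532 in cold. At the receptor's own gene, Ppara, the log2 change was -0.48 (adjusted p = 0.164), and at Pparg -0.47 (adjusted p = 0.284). Rxra, the partner receptor's gene, was covered in equal-length lists by 1 cold library alone (0.445 kb), and in whole lists by both RT libraries (0.844 and 1.13 kb) and 1 cold library (0.828 kb; log2 change -1.09, limma, adjusted p = 0.235).

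The 23 loci of mitochondrial fatty acid oxidation gave 0 higher and 1 lower in equal-length lists, with a median of 0.01. Whole scaled lists gave 8 higher and 0 lower of 23 and a median of 0.60. Of all loci there, 4.21% were higher and 31.1% lower, with a median of -0.44. The 1 call in equal-length lists was Etfb, a subunit of the electron transfer flavoprotein, with 3.30 and 2.96 kb at RT and 1.85, 1.68 and 1.84 kb in cold (log2 change -0.66 ± 0.12; limma, adjusted p = 0.0479), and 0.14 in whole lists (adjusted p = 0.619). Cpt1b, the muscle and brown fat form of the enzyme that admits fatty acids to mitochondria, had 3.68 and 3.68 kb at RT and 3.35, 2.203 and 3.00 kb in cold, a change of -0.33 (adjusted p = 0.346). Its best site ranked 299 and 136 at RT and 111, 87 and 72 in cold, while the other sites at this locus had mixed ranks.

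For the list of PPAR target genes, 0 of 23 tested loci were called in equal-length lists, with a median of 0.10. Whole scaled lists gave 9 higher and 0 lower of 23, with a median of 0.62, where 4.21% and 31.1% of all loci were called. Without scaling, the medians of the mitochondrial and PPAR target lists turned negative in whole lists (-0.82 and -0.98), with 0 loci higher and 13 lower of 23 in each. Of all 10231 loci in those lists, 8 were higher and 6851 lower, with a median of -1.09. Peroxisomal oxidation loci gave 0 calls of 17 (median 0.27) against 6 higher and 2 lower of 20 (median 0.66), and 0 higher and 7 lower in whole lists without scaling (median -0.78). At Pdk4, the kinase that turns pyruvate away from oxidation, coverage was 1.99 and 2.23 kb at RT and 2.60, 3.30 and 3.61 kb in cold. The groups did not overlap, which 16.4% of tested loci showed in this direction, and the change was 0.48 (adjusted p = 0.182), against 1.30 in whole lists (adjusted p = 0.0023). The Pdk4 start site was among the strongest of the genome in every list, at rank 4 and 6 at RT and 12, 17 and 7 in cold. Angptl4, an inhibitor of lipoprotein lipase, had a change of -0.40 in equal-length lists (adjusted p = 0.346) and of 0.58 in whole lists (adjusted p = 0.174). Fgf21 and Dio2 had no region in any equal-length list.

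Of the 19 thermogenesis loci tested, Ppargc1a rose and Esrrg fell in equal-length lists, and the list median was -0.15. The counts in whole scaled lists were 4 higher and 1 lower of 24 (median 0.10). Ucp1, the uncoupling protein that makes heat (chromosome 8, 83290348 to 83298456), had 3.06 and 2.66 kb at RT and 4.82, 4.65 and 2.99 kb in cold in equal-length lists. The lowest cold library lay below the higher RT library, and the change was 0.45 (limma, adjusted p = 0.346). In whole scaled lists Ucp1 had 2.36 and 2.23 kb at RT and 6.50, 8.60 and 5.56 kb in cold, without overlap, and was called higher (1.38, adjusted p = 0.00615), whereas without scaling the change was -0.28. The sites above the gene held their rank. The one 4.26 kb from the start, chr8:83284171-83286087, ranked 50 and 28 at RT and 31, 32 and 27 in cold. The next, 1.88 kb from the start, ranked 258 and 91 at RT and 73, 136 and 70 in cold. At Cidea, a lipid droplet protein of brown fat, the change was 0.10 (adjusted p = 0.714).

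**Figure D3:**
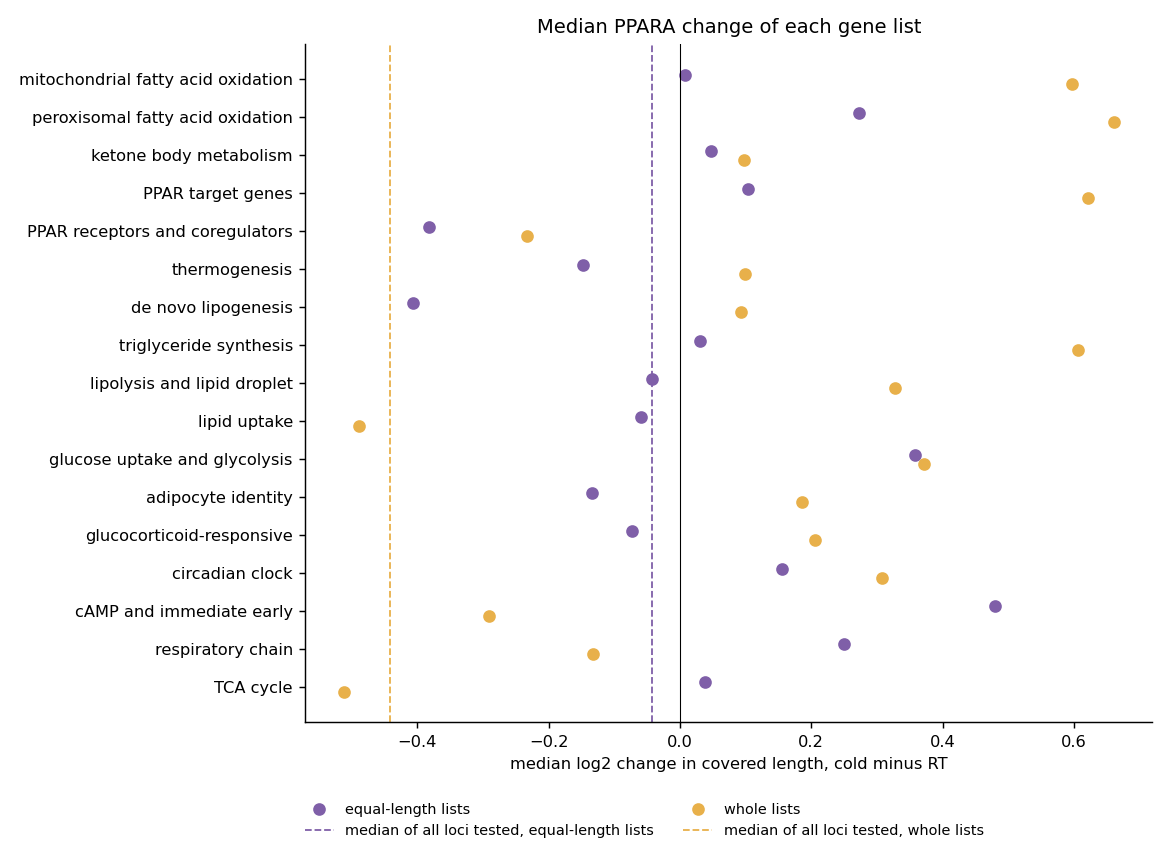
Median log2 change in PPARA-covered length (cold minus RT) of each of 17 gene lists, in equal-length lists (purple) and whole lists (yellow), with dashed lines at the medians of all loci tested (-0.04 and -0.44). In whole lists the oxidation, peroxisomal, PPAR target and triglyceride lists lie at 0.60 to 0.66, and in equal-length lists at 0.01 to 0.27.

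Of 17 glucose uptake and glycolysis loci tested 2 were higher and 0 lower in equal-length lists, with a median of 0.36, where 2.39% of all loci were higher. Whole scaled lists gave 5 higher and 3 lower (Tpi1, Pgam1 and Pdk1) of 22. Slc2a1, the glucose transporter GLUT1 (chromosome 4, 119108745 to 119137330), was listed at 0 in both RT libraries and had 2.16, 1.70 and 1.14 kb in cold (limma, adjusted p = 0.0438). Like Pfkp below, Slc2a1 passed the filter through the cold lists alone. Its site chr4:119132486-119134098, inside the gene body, ranked 3223, 2700 and 3004 in cold, was absent from one RT list and ranked 25495 in the other. Whole scaled lists also called Slc2a1 higher (adjusted p = 0.0067), and unscaled ones did not (log2 change 1.17, adjusted p = 0.0977). Pfkp, the platelet form of phosphofructokinase, was listed at 0 at RT and had 0.602, 0.555 and 0.61 kb in cold (limma, adjusted p = 0.0462), but was not called in whole lists (adjusted p = 0.188). A site in its gene body, chr13:6631772-6632516, ranked 18995 and 11574 at RT, below the list limit.

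Of 13 triglyceride synthesis loci 1 rose and 1 fell (median 0.03). Gpam, which catalyses the first acylation of glycerol phosphate, had 0.505 and 0.646 kb at RT and 1.82, 2.32 and 1.75 kb in cold. All cold values were above the RT values, a log2 change of 1.19 ± 0.17 (limma, adjusted p = 0.0438), or 0.62 in whole lists (adjusted p = 0.0828). The site chr19:55094866-55096083, inside the gene body, moved from ranks 1614 and 1426 to 315, 321 and 180. Dgat1, which catalyses the last step, had 3.83 and 4.72 kb at RT and 2.42, 2.16 and 2.37 kb in cold (-0.76 ± 0.14; limma, adjusted p = 0.0479), and 0.33 in whole lists (adjusted p = 0.231). In whole scaled lists this list had 2 higher (Gpd1 and Aqp7) and 0 lower of 14 (median 0.61). Among 17 de novo lipogenesis loci 0 were called in equal-length lists (median -0.41) and 1, Elovl6, was higher in whole lists (median 0.09).

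The TCA cycle list gave 1 rise and 1 fall among 12 loci in equal-length lists (median 0.04), and 2 higher (Cs and Idh3a) and 1 lower of 15 in whole lists (median -0.51). Ogdh, a subunit of 2-oxoglutarate dehydrogenase, was listed at 0 at RT and had 1.23, 1.15 and 1.57 kb in cold (limma, adjusted p = 0.0438). It passed the filter through the cold lists alone. The region at its start was present at RT below the list limit, at ranks 11774 and 8343 against 3897, 5004 and 4688 in cold, and whole lists did not call the locus (adjusted p = 0.0842). Pcx, pyruvate carboxylase, had 4.19 and 4.11 kb at RT and 1.86, 1.42 and 1.30 kb in cold, all below the RT values (-1.21 ± 0.16; limma, adjusted p = 0.0438), and was lower in whole lists too (-0.81, adjusted p = 0.00493). Nr1d1, the clock repressor REV-ERBα, fell by 0.63 (limma, adjusted p = 0.0488; 0.13 and adjusted p = 0.75 in whole lists), as the only call among 17 circadian loci in equal-length lists. Whole scaled lists called 3 of 19 circadian loci higher, Arntl, Nfil3 and Bhlhe40, and 0 lower (median 0.31). Tsc22d3, the glucocorticoid-induced GILZ gene, had 0.602 and 0.634 kb at RT and was listed at 0 in cold (limma, adjusted p = 0.0438; 0.124 in whole lists). This locus passed the filter through the RT lists alone.

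The largest rises outside these lists were at Ankrd9, Gmpr and Slc39a14. Ankrd9, an ankyrin repeat gene, had 0.931 and 0 kb at RT and 4.41, 5.38 and 3.72 kb in cold (log2 change 2.55 ± 0.48; limma, adjusted p = 0.0488; 1.87 and 0.00271 in whole lists). Its strongest site lay 3.55 kb from the gene, chr12:110982636-110985011, with a deposited fold enrichment of 30.1, 28.0 and 20.6 in cold and of 7.06 and 7.50 in the whole RT lists, where it ranked 11971 and 10462. Gmpr, guanosine monophosphate reductase, had 0.281 and 0 kb at RT and 2.31, 2.70 and 2.55 kb in cold (2.27 ± 0.23; limma, adjusted p = 0.0438; 1.30 and 0.0104 in whole lists). A further site, 26.8 kb from Gmpr and so outside its locus, was held by all 5 lists and ranked 159 and 420 at RT and 5, 6 and 6 in cold. Slc39a14, a zinc and iron importer, and Wnt5b, a signalling ligand, were listed at 0 at RT in equal-length lists. Both had RT regions below the list limit. A Slc39a14 site, chr14:70335935-70337109, ranked 13216 and 7907 at RT and 878, 1049 and 876 in cold. The Wnt5b start site ranked 8108 and 15021 at RT, with a fold enrichment of 8.89 and 6.15 against 6.50, 5.32 and 6.50 in cold. Slc39a14 had 1.56, 1.55 and 2.07 kb in cold and Wnt5b 1.20, 1.25 and 1.33 kb (limma, adjusted p = 0.0438 each; 0.00423 and 0.0162 in whole lists). The 10 largest rises also included 4930415O20Rik, Pard3, Notch4 and Spred2. Like Slc39a14 and Wnt5b, each was listed at 0 in both RT libraries and so passed the filter through the cold lists alone. In whole scaled lists 4930415O20Rik was called higher (limma, log2 change 1.22, adjusted p = 0.0217). Pard3 (-0.21, adjusted p = 0.715), Notch4 (0.57, adjusted p = 0.0747) and Spred2 (0.59, adjusted p = 0.275) were not called there. Cd68, a macrophage gene, was called higher as well, with 0.483, 0.462 and 0.647 kb in cold and 0 at RT (limma, adjusted p = 0.0491), but not in whole lists (-0.18, adjusted p = 0.757). This locus too passed the filter through the cold lists alone. The region that the cold lists held there, chr11:69661464-69662695, lies outside the Cd68 gene body and over a RefSeq start. Both whole RT lists held it below the list limit, at ranks 10652 and 16510.

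**Figure D4:**
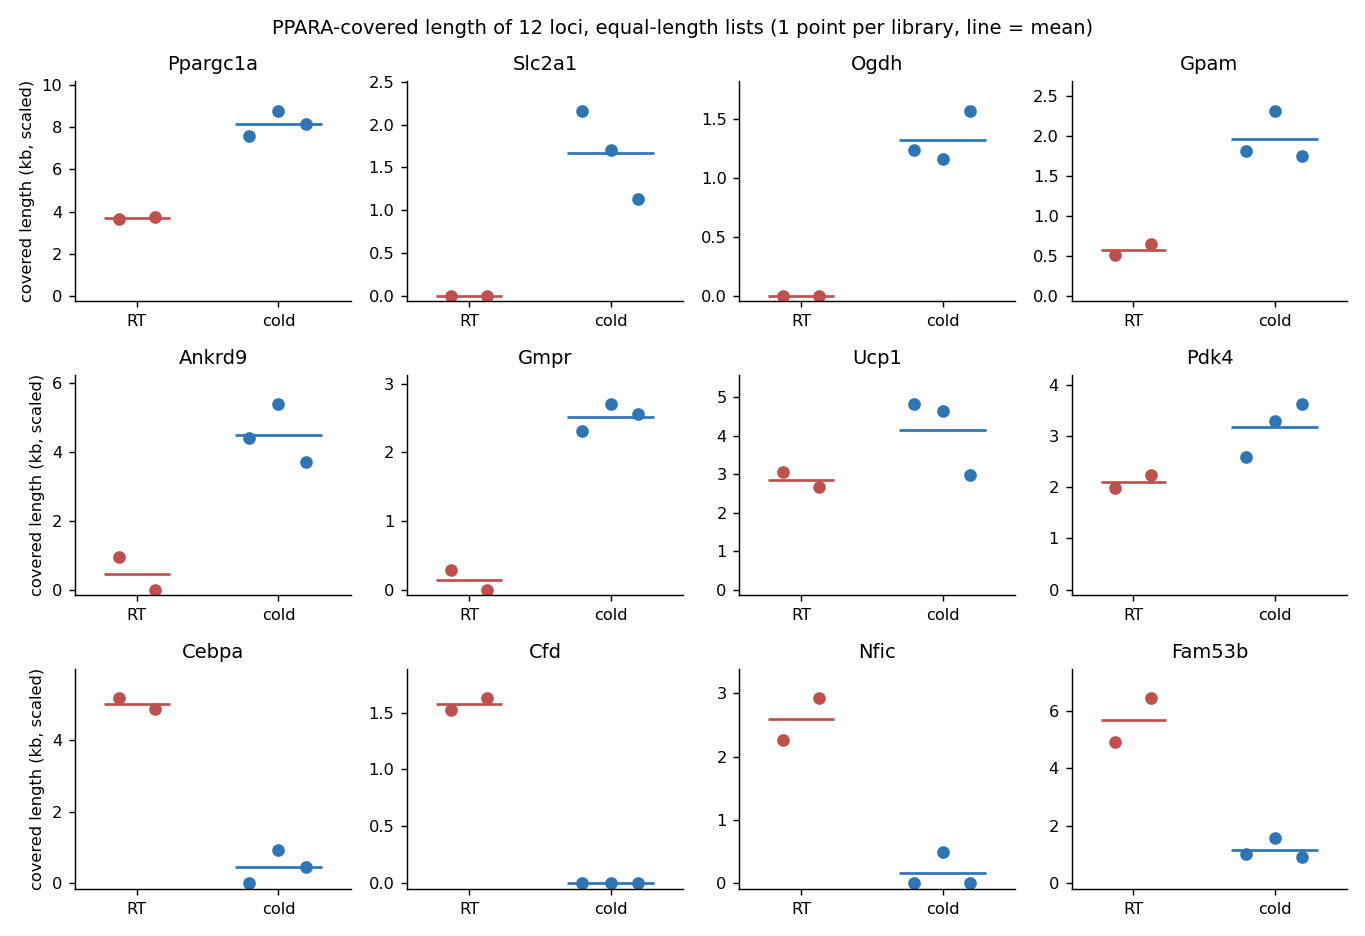
Scaled PPARA-covered length in kb (y axis, from equal-length lists) of 12 loci in each library, with 2 RT points (red) and 3 cold points (blue) and a line at each group mean. The cold points of Ppargc1a (7.59 to 8.79 kb) all lie above the RT points (3.66 and 3.74 kb), those of Ucp1 overlap, and Cfd is at 0 in all cold libraries.

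Of 18 adipocyte identity loci 0 were higher and 2 lower in equal-length lists (median -0.13), where 2.39% and 5.11% of all loci were called. Whole scaled lists gave 3 higher (Cebpb, Klf15 and Plin1) and 2 lower (Cfd and Cebpd) of 19, and a median of the opposite sign (0.19). Cebpa, a partner of PPARG in fat cell formation (chromosome 7, 35119293 to 35121928), had 5.16 and 4.86 kb at RT and 0, 0.923 and 0.462 kb in cold (-2.64 ± 0.46; limma, adjusted p = 0.0464), and just missed the threshold in whole lists (-1.18, adjusted p = 0.0511). A further site 16.1 kb from the gene, beyond the locus, ranked 40 and 57 at RT, the best of all sites that no cold list held. Cfd, the gene of adipsin, had 1.53 and 1.63 kb at RT and was listed at 0 in cold, in whole lists as well (limma, adjusted p = 0.0438 and 0.00432). This locus passed the filter through the RT lists alone. In equal-length lists the neighbouring locus of Prtn3 holds the same values, and most regions of the 2 loci are shared.

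The 10 largest falls included Cebpa, Prtn3, Nfic, Rnf144b, Fam53b, Twnk and Lgals1, and also Mcam, Hexim1 and Ly6e. Nfic, a nuclear factor I gene, had 2.26 and 2.92 kb at RT and 0, 0.494 and 0 kb in cold (-2.29 ± 0.38; limma, adjusted p = 0.046; -1.89 and 0.044 in whole lists), with 7 of its 9 sites present in both RT lists. Rnf144b, a ubiquitin ligase, had 2.00 and 2.61 kb at RT and was listed at 0 in cold (limma, adjusted p = 0.0438; 0.0131 in whole lists, where 1 site remained in 1 cold list). Fam53b had 4.92 and 6.43 kb against 1.04, 1.57 and 0.907 kb (-1.90 ± 0.23; limma, adjusted p = 0.0438; -1.38 and 0.0125 in whole lists). Twnk, the mitochondrial DNA helicase, had 2.47 and 2.75 kb against 0, 0.593 and 0 kb, and Lgals1, galectin-1, 1.68 and 1.37 kb against 0 in cold (limma, adjusted p = 0.0483 and 0.0438). Neither was called in whole lists (adjusted p = 0.261 and 0.224). The Twnk values come from chr19:45014714-45018129, a region outside the Twnk gene body and over another RefSeq start. At the start of Twnk itself, RT replicate 1 alone held a region, at rank 21858. Rnf144b and Lgals1 passed the filter through the RT lists alone.

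At the level of sites, the 5 equal-length lists merged into 13976 intervals. Of these, 2883 (20.6%) were in all 5 lists, 500 (3.58%) were gained, in 3 of 3 cold and 0 of 2 RT lists, and 1018 (7.28%) were lost, in 2 of 2 RT and 0 of 3 cold lists. Whole lists gave 3899 common, 83 gained and 8081 lost of 33533 (11.6%, 0.248% and 24.1%). Many gained sites had a region of lower rank at RT: both whole RT lists held 335 of the 500 (67.0%) below the list limit, 1 held 104 (20.8%) and neither held 61 (12.2%). Of the 1018 lost sites, 788 (77.4%) were in no whole cold list, 229 (22.5%) in 1 and 1 in 2. Leaving out 1 library asks for fewer lists and gave 715 to 880 gained and 1197 to 1819 lost sites. Because whole cold lists are far shorter, the shares of gained and of lost sites held below the limit are not comparable with each other.

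Promoter sequences from RefSeq (GRCm38.p6, 250 bases before to 50 after each start) were searched for DR1, here 2 copies of AGGTCA on the same strand with any 1 base between them, on both strands and with up to 2 mismatches in the copies. A match was present in 1268 of 32619 promoters (3.89%), in 51 of 590 under a common site (8.64%), in 8 of 79 under a gained site (10.1%) and in 3 of 92 under a lost site (3.26%). A match describes letters and not a bound site. The 5 promoters shown stand for the 3 patterns of PPARA regions over a start: Ppargc1a, Gmpr and Isca1 (gained in equal-length lists), Slc25a20 (common) and Cfd (lost). Capitals mark the best match to the motif where there was one.
Ppargc1a, chr5:51567676-51567975, minus strand: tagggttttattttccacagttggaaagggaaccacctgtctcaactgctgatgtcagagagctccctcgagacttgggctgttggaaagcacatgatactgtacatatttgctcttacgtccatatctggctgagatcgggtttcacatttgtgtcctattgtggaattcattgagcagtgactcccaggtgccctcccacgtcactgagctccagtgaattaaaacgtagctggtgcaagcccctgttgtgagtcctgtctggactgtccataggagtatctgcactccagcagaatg
Gmpr, chr13:45507194-45507493, plus strand: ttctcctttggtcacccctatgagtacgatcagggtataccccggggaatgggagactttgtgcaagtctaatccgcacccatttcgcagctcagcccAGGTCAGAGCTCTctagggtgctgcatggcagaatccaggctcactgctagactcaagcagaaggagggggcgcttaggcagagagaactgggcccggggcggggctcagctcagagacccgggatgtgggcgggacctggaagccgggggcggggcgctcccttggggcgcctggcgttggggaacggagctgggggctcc
Isca1, chr13:59769740-59770039, minus strand: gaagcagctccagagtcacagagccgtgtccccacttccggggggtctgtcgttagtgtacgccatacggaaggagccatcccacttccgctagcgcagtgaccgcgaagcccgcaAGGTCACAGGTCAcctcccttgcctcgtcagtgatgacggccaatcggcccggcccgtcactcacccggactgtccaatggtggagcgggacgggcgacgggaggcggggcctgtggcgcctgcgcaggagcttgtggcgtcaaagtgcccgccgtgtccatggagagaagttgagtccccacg
Slc25a20, chr9:108661886-108662185, plus strand: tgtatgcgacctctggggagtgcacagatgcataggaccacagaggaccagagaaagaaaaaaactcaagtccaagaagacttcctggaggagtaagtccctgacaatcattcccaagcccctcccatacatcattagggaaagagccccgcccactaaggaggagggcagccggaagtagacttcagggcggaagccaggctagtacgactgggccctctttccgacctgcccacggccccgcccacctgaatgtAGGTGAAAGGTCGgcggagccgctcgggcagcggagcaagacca
Cfd, chr10:79890603-79890902, plus strand: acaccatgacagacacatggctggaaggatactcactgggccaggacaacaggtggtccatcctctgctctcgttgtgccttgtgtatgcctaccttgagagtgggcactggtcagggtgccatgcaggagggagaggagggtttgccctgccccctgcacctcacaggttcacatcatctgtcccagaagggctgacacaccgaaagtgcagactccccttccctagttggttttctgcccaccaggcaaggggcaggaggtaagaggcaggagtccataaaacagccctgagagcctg

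In Isca1, a gene of iron-sulphur cluster assembly chosen after its match was seen, the letters fit without mismatch. A region over this start, chr13:59769076-59770475, was in all 5 whole lists, at ranks 9746 and 12445 at RT and 6710, 5551 and 5436 in cold, and its deposited fold enrichment was lower in cold (6.50, 5.80 and 5.41) than at RT (7.69 and 6.75). The Gmpr start site, chr13:45506635-45508848, ranked 15562 and 15129 at RT and 1416, 1351 and 1422 in cold. Slc25a20, the carnitine-acylcarnitine carrier of mitochondria, had its site chr9:108661848-108664229 at ranks 121 and 256 at RT and 176, 52 and 158 in cold. The Cfd start site, chr10:79890376-79891167, ranked 338 and 281 at RT and was in no cold list. Neither the Ppargc1a nor the Cfd window held a match.

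Pairs of lists overlapped more within a condition than between. With equal lengths the RT pair shared 77.9% of regions, the 3 cold pairs 60.2 to 69.0%, and the 6 pairs between conditions 55.0 to 65.1%, so the ranges overlapped (means 67.8% and 59.8%; exact permutation p = 0.1, the smallest possible). The share of regions touching a gene body was 62.8 and 62.1% at RT and 59.5, 59.4 and 58.1% in cold (exact permutation p = 0.1). The share within 1 kb of a RefSeq start was 14.1 and 13.8% against 12.8, 16.2 and 14.9% (exact permutation p = 0.7), with groups that overlapped. The set of starts was incomplete. It had none on chromosome 18, whose regions were left out of this share. Starts of some other genes were missing, and regions near them were not counted. A site in the Fabp4 gene body, for example, was 3584 kb from the nearest start in the set.

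The 2883 common sites were also reordered. At 764 (26.5%) every cold rank was better than both RT ranks, and at 532 (18.5%) every RT rank was better. Ranking by fold enrichment gave 774 and 532. Sites that climbed most, besides that of Gmpr, were in Spock1, a proteoglycan gene (3818 and 3764 at RT to 158, 133 and 59), and in Cbfa2t3, a corepressor gene (298 and 318 to 11, 16 and 19). Sites that dropped most lay 24.6 kb from Rab11fip4 (7 and 22 to 1618, 2086 and 1724), 228 kb from Gm4791 (17 and 23 to 2635, 932 and 2373), in Tspan18 (29 and 26 to 1838, 2407 and 1568) and at the start of Esrrg. Some sites ranked high in all 5 lists: those in Ppargc1b, the PGC1B gene (6 and 8, then 2, 2 and 2), Otop1, a brown fat ion channel gene (5 and 11, then 6, 5 and 5), and Lipe, hormone-sensitive lipase (3 and 5, then 8, 7 and 11), were in the best 11 of all 5 lists. The site of rank 1 or 2 in all 5 lists, 1034.6 kb from Lrrc4c, had a fold of only 2.96 to 4.33 and is not described further.

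**Figure D5:**
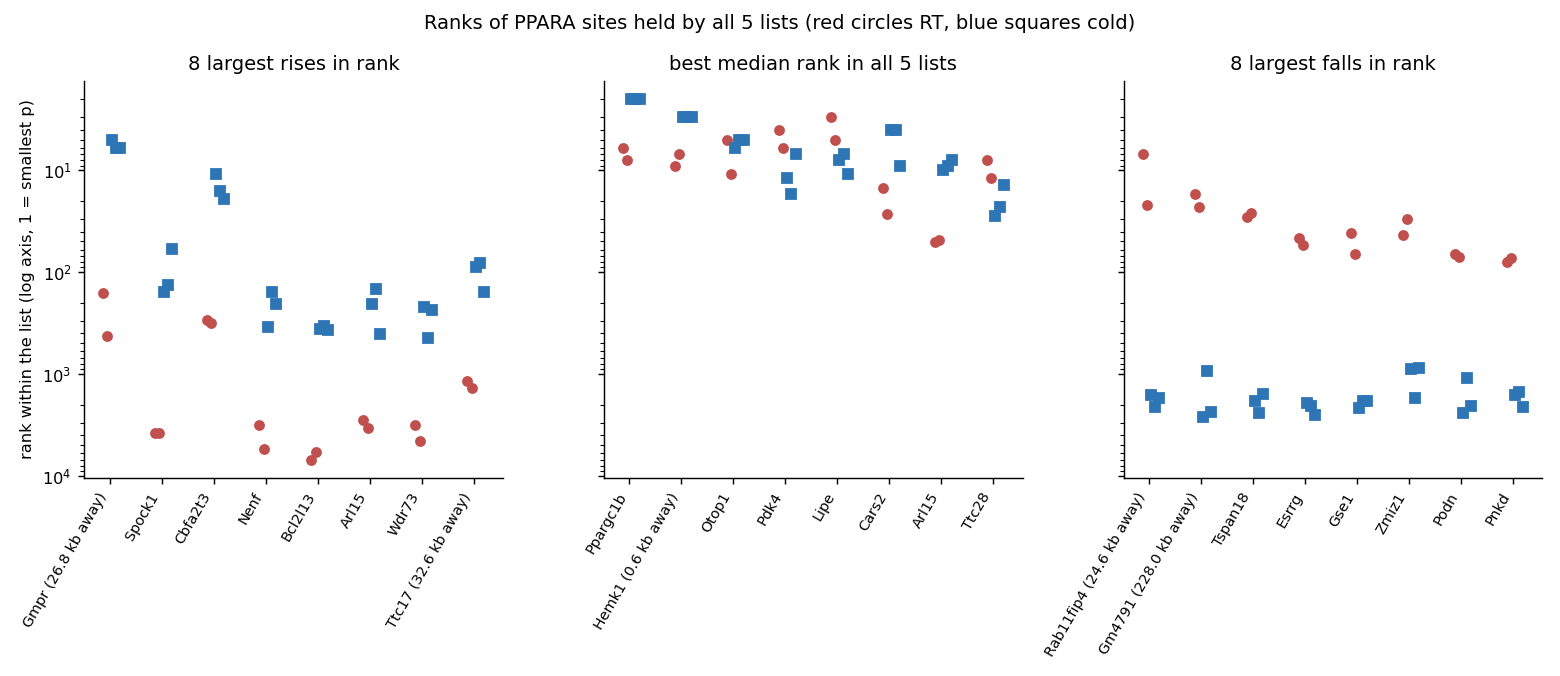
Rank within the list (log axis, 1 is the smallest p) of PPARA sites held by all 5 lists: the 8 with the largest improvement in cold (left), the best in all lists (middle) and the 8 with the largest drop (right). Red circles are RT libraries and blue squares cold libraries. The Gmpr site moves from 159 and 420 to 5 and 6, and the Esrrg site from 46 and 54 to 1940 or beyond.

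Gained and lost sites differed in the company of other factors, as read from the series' own lists (a site counted as held when at least 2 libraries of a target overlapped it). PGC1A in cold held 118 of 500 gained sites (23.6%), 25 of 1018 lost sites (2.46%) and 863 of 2883 common sites (29.9%). CEBPB in cold held 82.6%, 36.9% and 83.4%, and CEBPA at RT 72.4%, 64.9% and 88.1%. PGC1A and CEBPB were profiled in cold alone and CEBPA at RT alone, so target and temperature cannot be told apart in these shares. Among these 3 sets of equal-length sites, PPARG lists from RT held 90.0% of gained, 99.0% of lost and 99.9% of common sites, and PPARG lists from cold 98.4%, 84.1% and 99.8%. In whole lists PPARG at RT held 54.2% of gained sites and PPARG in cold 75.9% of lost sites. The acetylation mark H3K27ac of active regions covered 68.4% of gained and 78.2% of lost sites at RT and 76.8% and 58.3% in cold. Sites of 1 set of libraries are not replicates, and these shares carry no test. One PGC1A library, replicate 3, has a genotype label of HA-CEBPA KI and was grouped by its title.

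The change of PPARA was then set against that of PPARG in BAT of WT mice (3 libraries per condition, another antibody), with all 11 lists at 7317 regions and the difference of the 2 changes tested by limma. The difference was called at 701 of 6638 loci (10.6%), at 278 (4.19%) with PPARA relatively higher in cold and at 423 (6.37%) with PPARA relatively lower. Ogdh had no PPARG region in any equal-length list and entered this test through the PPARA cold lists alone. Its PPARG change of 0 is a floor value, so the called difference (adjusted p = 0.000126) does not compare 2 measured changes. At Gpam the PPARG change was 0.13 against 1.35 for PPARA (difference 1.21 ± 0.20, adjusted p = 0.00384). Ppargc1a rose more for PPARA (1.08) than for PPARG (0.41; difference 0.67 ± 0.14, adjusted p = 0.0107). Nfic changed by -2.73 for PPARA and 0.21 for PPARG (difference -2.95 ± 0.53, adjusted p = 0.00582).

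At Cfd the difference was not called (-0.27 ± 0.17, adjusted p = 0.358): on the common scale of all 11 libraries PPARG had 2.14, 2.02 and 1.75 kb at RT and, like PPARA, was listed at 0 in cold. Cebpa had 3.01, 2.97 and 3.38 kb of PPARG in cold against 8.79, 8.52 and 7.31 kb at RT, and the difference of -1.72 ± 0.60 missed the threshold (adjusted p = 0.137). Antibody and genotype differ between the 2 factors and cannot be told apart from the factor itself.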

How the data were processed

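ChIP-seq peak lists of 35 libraries from mouse BAT were used, 5 of them for PPARA and 6 for PPARG. Per the submitters' processing notes, which give no roles, the tools were MACS2 2.2.7.1 and, on the build GRCm38.p6, deepTools 3.4.3, SAMtools, BWA 0.7.17 and Trim Galore 0.6.0. The deposited narrowPeak lists, 1 per library, give a caller's score, not used as a value. They also hold the fold enrichment of each peak as the authors deposited it. The −log10 p and −log10 q of each peak are likewise the authors' deposited values, and the lowest −log10 q was 1.31, which is a q of 0.05. Read depth is unknown from these lists.

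Overlapping peaks on chromosomes 1 to 19 and X were merged (51 peaks lay elsewhere), ranked by −log10 p and, for equal length, reduced to 7317 per list. Covered length in 21631 loci, of which 76.3% overlap another locus, was scaled to the mean library total. Values of log2(bp + 500) were fitted with limma 3.58.1 in R 4.3.3 (trended empirical Bayes, all adjusted p-values by Benjamini-Hochberg over all loci covered in at least 2 libraries). The fit was tested on simulated data. Python 3.11.15, numpy 2.4.6, pandas 2.3.3 and matplotlib 3.10.9 did the rest. A list held a site on an overlap of 1 bp. RefSeq gave gene positions and promoters (GRCm38.p6), with no exon annotation used here. The promoters, and so the starts, included none on chromosome 18 and lacked those of some other genes.

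Members and gene lists (24 lists, 341 of 341 names matched) were chosen with earlier results of these data known. Genes were named as the 10 largest rises and falls without overlap, 28 key genes, up to 4 called members per list, the 5 best gained, lost and common sites, and the 5 largest differences from PPARG in each direction. Sites with the largest rank shift, the fixed-width regions of 500 bp, the 50% coverage of a site and the ranking of common sites by fold were chosen after seeing the data. Alternatives changed list length, scaling, ranking, the added length, the filter, the locus, the libraries and a block on replicate number. Some results under these rules are not reported here.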

Additional observations from a re-analysis of the deposited data

Results flagged for a closer look

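At 10 loci the change of PPARA in cold, minus that of PPARG, was among the 5 largest in its direction by limma's test of the difference (adjusted p-values over 6638 loci). The value is a log2 difference that depends on the 500 bp added where a group is listed at 0. It was 2.60 at Cela3a (adjusted p = 8.19e-05), where PPARA had 2.36 to 2.61 kb in all 5 libraries and PPARG 2.39 to 2.78 kb at RT and 0 in cold. It was 2.58 at Mfn2, a gene of mitochondrial fusion (adjusted p = 0.0121), 2.58 at Tlr5 (adjusted p = 0.00966), 2.58 at Iqch (adjusted p = 0.0236) and 2.53 at Usp35 (adjusted p = 0.00271). At Tlr5, Iqch and Usp35 PPARA was listed at 0 at RT, a floor value, though both whole RT lists held regions there. Tlr5 had a PPARA region in cold replicate 3 alone.

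In the opposite direction it was -3.99 at Ptma (adjusted p = 0.00486), -3.45 at Zdhhc5 (adjusted p = 0.000259), -3.44 at Mertk (adjusted p = 0.024), -3.43 at Sox18 (adjusted p = 8.19e-05) and -3.42 at Als2cl (adjusted p = 0.0097). At Ptma and Als2cl PPARA was listed at 0 in cold, a floor value, and Als2cl had a PPARA region in RT replicate 1 alone. Sox18, an endothelial transcription factor gene, was listed at 0 in all 5 PPARA libraries, and PPARG had 4.81, 6.17 and 3.92 kb in cold and 0 at RT. It therefore entered the test through PPARG in cold alone, and its PPARA change of 0 is a floor value. Antibody and genotype differ between the factors, and their part in these differences was not tested.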

How the results depend on the processing

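The 121 higher and 258 lower loci of equal-length lists became 431 and 3183 with whole scaled lists, and 8 and 6851 with whole lists without scaling. Scaling off at equal length gave 701 lower. The higher count was 214 with lists of 3658 regions, 188 ranked by fold enrichment, 254 with 100 bp added and 196 with fixed-width regions. With 2000 bp added the counts were 11 and 63. With no filter limma called 0 and 0 (421 and 684 at an unadjusted p under 0.05). Leaving out 1 library gave 0 to 356 higher and 0 to 446 lower, with 0 lacking either RT library. In whole lists the counts were 8 and 6851 without scaling, and 13 to 558 and 2 to 4095 leaving out 1 library. The PPARG comparison gave 565 and 2821 with whole lists and 279 lower with the gene body alone, and 254 to 449 and 362 to 562 leaving out 1 library.

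A replicate block gave 0 higher and 0 lower in equal-length lists (516 and 629 at an unadjusted p under 0.05), 474 and 3377 in whole lists, and 340 and 420 in the PPARG comparison. Deviations of same-numbered PPARA libraries from their group means had correlations of -0.00843 and 0.00205. With 2 RT libraries these deviations mirror each other, so the correlations cannot show whether same-numbered libraries shared a batch. The sample titles give a replicate number alone.

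Sites lost and common were 556 and 1624 with lists of 3658 regions, and 1883 and 1241 where a list had to cover 50% of a site (whole lists 1645 common). Leaving out 1 library gave 715 to 880 gained, 1197 to 1819 lost and 2996 to 3371 common sites, and in whole lists 103 to 190, 8580 to 15360 and 3957 to 5294. The planned 50% of a region or site could change no count, because a site is a union of regions. The ratio of region counts was 0.294 to 0.370 and that of covered length 0.227 to 0.308.

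Signs were followed for 30 of the named genes. Log2 changes among them that turned in sign with whole lists without scaling were Ucp1 -0.28, Ppargc1a -0.64, Pdk4 -0.34, Cidea -1.28, Gpam -0.96, Pfkp -0.51, Ogdh -0.43, Gmpr -0.26, Wnt5b -0.22 and Cd68 -1.40. Without scaling at equal length these were Ucp1 -0.17, Pdk4 -0.11 and Cidea -0.40, and with the gene body alone Ucp1 -0.32, Pdk4 -0.28 and Ppara 0.31. With whole scaled lists they were Pparg 0.21, Cpt1b 0.51, Angptl4 0.58, Etfb 0.14, Dgat1 0.33, Esrrg 0.10, Nr1d1 0.13 and Cd68 -0.18, and with fixed-width regions Pparg 0.068. Loci outside these 30 turned too, among them Pard3 -1.74, Notch4 -0.87 and Spred2 -0.86 in whole lists without scaling, and Pard3 -0.21 in whole scaled lists. Why these signs turned was not tested. Depth limits all counts and is unknown here.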
